A study of Homo sapiens with 60 samples.

Results

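Plasma carrier proteins and alpha-fetoprotein form a group of 10 genes chosen by name: ALB, AFP, TTR, RBP4, TF, AHSG, SERPINA1, GC, AMBP and HPX. They were found by matching the Ensembl identifiers of the count table to gene symbols, and all 10 were present among its 60675 genes. Of these, 9 passed the filter on low counts and were tested, and GC did not pass. The study treated HepG2 cells, an established human hepatocellular carcinoma line, for 24 h with herbal water extracts and sequenced their mRNA. The single herbs Menthae Herba and Saposhnikoviae Radix, and the formulas Guibi-tang, Saengmaek-san, Okbyeongpung-san and Soyo-san, had 3 libraries at each of 20, 100 and 500 µg/mL. A further formula, Soshiho-tang, had 1 library at each of these doses, and vehicle had 3 libraries. All doses below are in µg/mL. Vehicle cells received dimethyl sulfoxide, for which the sample labels give 0.1%, a value that the series' design text gives differently. The cells are 1 tumour line. Nothing in the labels says whether replicates came from separate cultures, so a p-value here reflects spread among libraries that may be technical. In bulk RNA, fewer cells that express a gene and less of its RNA per cell cannot be told apart.

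Hepatocytes make most of the proteins of blood plasma and secrete them through the endoplasmic reticulum and Golgi. ALB encodes albumin, the main carrier of fatty acids, bilirubin and many drugs. AFP encodes its fetal counterpart, which is shut down after birth in liver and made again by many hepatocellular carcinomas, HepG2 among them. TTR carries thyroxine and holds the retinol carrier RBP4 in the circulation, TF (transferrin) carries iron, HPX (hemopexin) carries heme, and GC carries vitamin D. AHSG (fetuin-A) binds calcium phosphate, SERPINA1 (alpha-1-antitrypsin) inhibits neutrophil elastase, and AMBP is cut into alpha-1-microglobulin and bikunin. The liver transcription factors HNF4A, FOXA and CEBPA are known to act on many of these genes.

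ALB (chr4 73397114 to 73421412, plus strand) and AFP (chr4 73431138 to 73456174, plus strand) are neighbours by the gene bounds of GENCODE v29 (GRCh38). Between these bounds, 9.7 kb separate the end of ALB from the start of AFP. The RefSeq windows of ALB and AFP given below lie inside these bounds, so the sources place the gene starts differently. The promoters below, from RefSeq on GRCh38.p14, cover 250 bases before to 50 bases after a gene's start and are written 5′ to 3′ on the gene's strand. They are shown for the neighbours ALB and AFP, which moved together, and for AMBP and HPX, which moved in opposite directions. Capitals mark the letters AGGTCA (the core bound by many nuclear receptors, TGACCT when on the opposite strand) and TATAAA (the TATA box). ALB lies at chr4:73404037-73404336 (plus), AFP at chr4:73435971-73436270 (plus), AMBP at chr9:114078251-114078550 (minus) and HPX at chr11:6440938-6441237 (minus).
ALB: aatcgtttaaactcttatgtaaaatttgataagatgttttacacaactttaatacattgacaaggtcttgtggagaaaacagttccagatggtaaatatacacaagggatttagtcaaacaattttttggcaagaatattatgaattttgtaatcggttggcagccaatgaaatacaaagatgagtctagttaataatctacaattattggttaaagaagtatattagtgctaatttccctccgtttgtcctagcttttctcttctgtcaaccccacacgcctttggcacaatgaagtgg
AFP: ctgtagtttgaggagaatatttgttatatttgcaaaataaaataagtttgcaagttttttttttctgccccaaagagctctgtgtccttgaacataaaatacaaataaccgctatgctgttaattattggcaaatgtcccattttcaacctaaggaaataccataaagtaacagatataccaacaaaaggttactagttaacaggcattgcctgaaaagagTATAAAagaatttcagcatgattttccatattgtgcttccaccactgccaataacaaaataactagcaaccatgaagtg
AMBP: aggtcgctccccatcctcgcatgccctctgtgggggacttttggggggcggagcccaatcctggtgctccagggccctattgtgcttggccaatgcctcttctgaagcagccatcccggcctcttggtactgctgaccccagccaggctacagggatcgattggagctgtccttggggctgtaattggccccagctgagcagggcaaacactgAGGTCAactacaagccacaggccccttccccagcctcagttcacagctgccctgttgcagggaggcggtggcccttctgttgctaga
HPX: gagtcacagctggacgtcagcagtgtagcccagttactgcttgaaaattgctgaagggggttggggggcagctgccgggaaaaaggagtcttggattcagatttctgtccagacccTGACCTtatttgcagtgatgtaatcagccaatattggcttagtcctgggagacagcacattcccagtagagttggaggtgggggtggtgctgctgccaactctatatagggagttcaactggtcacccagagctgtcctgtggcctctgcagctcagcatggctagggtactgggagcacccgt
Both strands were searched for both motifs and for the FOXA core TGTTTAC, and no match overlapped a match to another motif in these 4 windows. RefSeq gave 12 promoters for 8 of the members, 3 of them for RBP4. AGGTCA was found in 4 of these 12 promoters, 1 each of TF, SERPINA1, AMBP and HPX, and in 13.8% of all 35116 promoters. TATAAA was found in 4 of the 12, that of AFP and all 3 of RBP4, and in 11.5% of all promoters. The RBP4 windows overlap in part, so the same site is counted in more than 1 of them. TGTTTAC was found in 0 of the 12 and in 3.42% of all promoters, and the ALB window held none of these motifs. Sites of other liver factors, such as HNF1, were not searched for. These matches describe letters only, and TTR and GC had no promoter entry.

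The libraries held 20446542 to 32386486 expected counts (median 25862356). Libraries fell into 2 classes by the nuclear noncoding RNA MALAT1: 31 had 175 to 283 CPM (the count relative to the scaled library total, in the usual unit) and 29 had 387 to 552 CPM. Both single herbs and vehicle had libraries of the lower class only. Okbyeongpung-san, Soyo-san and Soshiho-tang had libraries of the higher class only. Saengmaek-san and Guibi-tang held both classes at every dose, so their calls at 500 against 20 are also given within each class below. In both extracts every replicate 1 library was of the lower class and every replicate 3 library of the higher class. For Soyo-san and Okbyeongpung-san against vehicle, the class and the extract cannot be told apart without Saengmaek-san and Guibi-tang, which carry the class term of the alternative fit. The 10 hepatocyte markers summed to 36113 to 47543 CPM with Guibi-tang, 39089 to 47286 CPM with the other extracts and 45695 to 50008 CPM in vehicle. They include the members ALB, SERPINA1 and TTR, and the largest part was APOB, at 15834 to 29748 CPM over the 60 libraries. Of 6 fibroblast markers, COL1A2 and DCN were at 0 in 58 of 60 libraries each, while COL1A1 (0.459 to 1.51 CPM) and PDGFRB (7.29 to 24.7 CPM) were present in every library. The fibroblast markers summed to 15.1 to 25.6 CPM with Menthae Herba, 8.23 to 18.5 CPM with the other extracts and 13.1 to 14.5 CPM in vehicle, and their part in the results with Menthae Herba was not tested. Of 4 endothelial markers, KDR was at 0 in all 60 libraries and the other 3 were present in every library, led by PECAM1 at 2.79 to 5.11 CPM. The 6 leukocyte markers summed to 1043 to 2679 CPM with Menthae Herba, 1121 to 1916 CPM with Soyo-san and 974 to 1021 CPM in vehicle. Nearly all of that sum was the lysozyme gene LYZ, at 923 to 2628 CPM over the 60 libraries, while CD68 had 30.5 to 51.1 CPM and CD14 0.783 to 2.73 CPM, PTPRC was at 0 in 57 libraries, and CD3E and MS4A1 were at 0 in 59 each.

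In vehicle cells the level per kilobase of coding sequence was highest for SERPINA1, at 5252 ± 241 CPM per kb (SD, n = 3). ALB followed at 3872 ± 187 CPM per kb. AHSG at 1810 ± 81.9 and AFP at 1631 ± 99.7 CPM per kb came next, and their vehicle libraries overlapped. TF had 943 ± 35.8, RBP4 760 ± 10.4, AMBP 639 ± 34.8 and TTR 175 ± 15.4 CPM per kb, with no overlap between neighbours in this order. HPX was far lower, at 9.87 ± 0.56 CPM per kb. By plain CPM, ALB was the 8th, SERPINA1 the 16th and AFP the 23rd most abundant mRNA of the table by its mean over the libraries. The 10 genes together held 1.97% to 2.58% of the scaled counts. GC had 54 counts over all 60 libraries, in 31 of them, with at most 4 counts in a library. A floor of 3 counts equals 0.147 CPM in the shallowest and 0.0926 CPM in the deepest library, and floors cover counting error only. GC was below the filter and had no test. With Guibi-tang it had 3, 4 and 4 counts at 20, 1, 0 and 0 at 100, and 0, 0 and 0 at 500, beside 2, 1 and 0 counts in vehicle. The 3 libraries at 20 lay above those of the other doses and of vehicle, a difference singled out after its values were seen.

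Over the 60 libraries, ALB and AFP varied least, and AHSG, TTR and HPX varied most. ALB ran from 6749 to 8397 CPM with a median of 7771 CPM. AFP ran from 2589 to 3346 CPM with a median of 3083 CPM. TF ran from 1892 to 2686 CPM, SERPINA1 from 4694 to 7272 CPM and RBP4 from 345 to 506 CPM. AHSG ran from 1780 to 3398 CPM, AMBP from 633 to 1070 CPM, TTR from 57.6 to 113 CPM and HPX from 8.95 to 17.8 CPM, so that the highest HPX library had 1.99 times the level of the lowest. The plot of every library shows where these extremes lay.

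**Figure D1:**
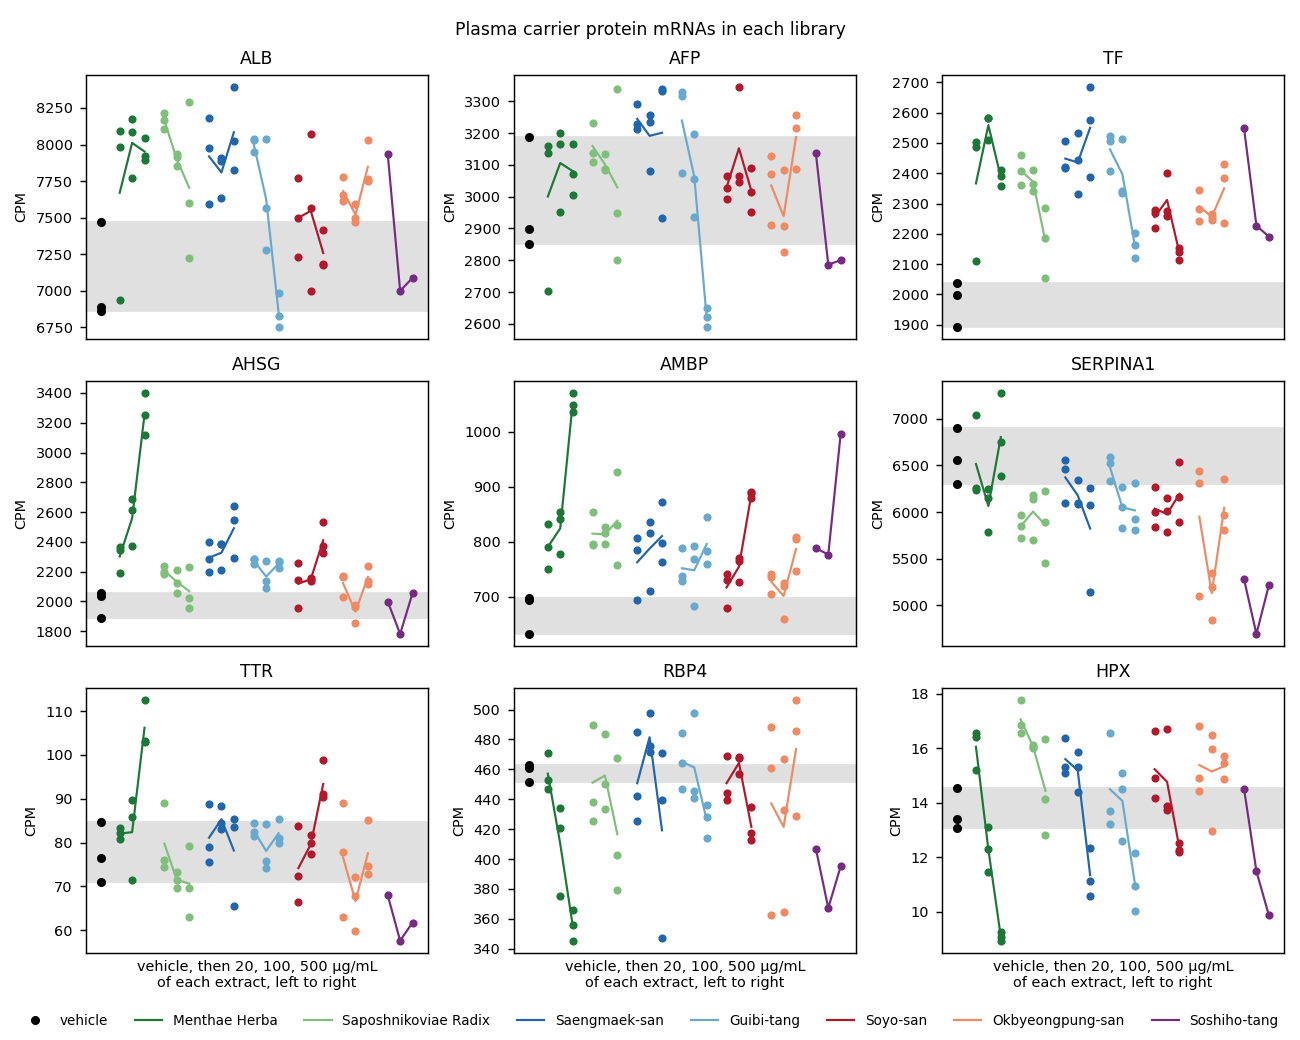
Level of each tested carrier mRNA in CPM (vertical axis, a linear axis that does not start at 0) in every library, with vehicle at the left and each extract's doses of 20, 100 and 500 µg/mL following; points are libraries, lines join group means, and the grey band spans the 3 vehicle libraries. AHSG, AMBP and TTR climb and RBP4 and HPX drop with Menthae Herba, ALB and AFP are lowest with Guibi-tang at 500, and all TF points of the extracts lie above the vehicle band.

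Each dose of the 6 replicated extracts was compared with vehicle, and 500 with 20 within each extract, by edgeR's quasi-likelihood F test with Benjamini-Hochberg adjustment over the 16644 genes tested. A gene was called at an adjusted p under 0.05. Many genes had groups of 3 libraries that did not overlap. With Menthae Herba this held for 49.8% of tested genes at 500 against vehicle and 43.7% at 500 against 20. At 100 and 20 of Menthae Herba against vehicle it held for 33% and 22.1%. At 500 against 20 the share was 22% with Guibi-tang and 26.4% with Soyo-san. At 500 against vehicle, 24 of 54 member-extract pairs were called, 19 higher and 5 lower, where 17% of all gene-extract pairs were called, 8.25% higher and 8.8% lower. At 100 against vehicle 14 pairs were called, 13 higher and 1 lower, where the background was 9.13%, with 4.14% higher and 4.99% lower. At 20 against vehicle 15 were called, all higher, where the background was 5.44%, with 2.5% higher and 2.94% lower. These comparisons share the 3 vehicle libraries. The background holds genes of every level above the filter, whereas most members were abundant. Shares among genes of like level were not computed. Within extracts, 500 against 20 gave 14 called pairs, 6 higher and 8 lower, where 8.37% of all gene-extract pairs were called, 4.43% higher and 3.93% lower. Without vehicle replicate 1 the count at 20 against vehicle was 8. That library had the highest ALB, AFP and SERPINA1 and the lowest TF, AHSG and AMBP of the 3 vehicle libraries. By extract at 500 against vehicle, 7 members were called with Menthae Herba (39.8% of genes called) and 5 with Guibi-tang (13.4%), of which 3 were higher (6.69%) and 2 lower (6.72%). Of the 5 calls with Guibi-tang, those of AFP, TF, AHSG and AMBP were lost without vehicle replicate 1 and also without Guibi-tang 500 replicate 1, and that of HPX without vehicle replicate 3 or Guibi-tang 500 replicate 2 or 3. Saengmaek-san had 5 called members (12.6%), Soyo-san 3 (21.5%), Okbyeongpung-san 3 (9.11%) and Saposhnikoviae Radix 1, AMBP (5.8%). The map of fold changes sets the 500 comparisons side by side.

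**Figure D2:**
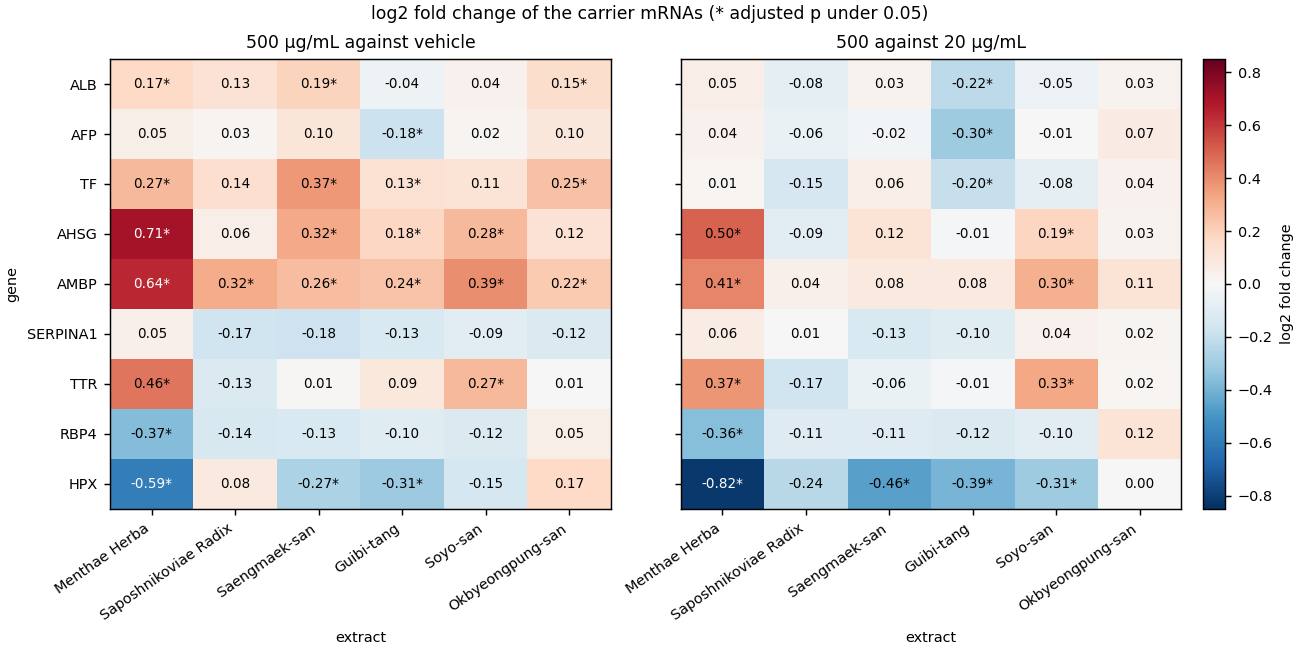
Log2 fold change of each tested carrier mRNA (rows) with each replicated extract (columns), at 500 µg/mL against vehicle on the left and at 500 against 20 µg/mL on the right; colour and numbers give the fold change, and an asterisk marks an adjusted p under 0.05. Menthae Herba has 7 marked genes against vehicle and 5 against its own 20 µg/mL, Guibi-tang has 5 and 4, and Okbyeongpung-san has 3 and 0.

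ALB, AFP and TF fell together with the highest dose of Guibi-tang. ALB had 7947, 8035 and 8030 CPM at 20, then 7564, 8038 and 7281 CPM at 100, and 6984, 6827 and 6749 CPM at 500. All 3 libraries at 500 lay below all 3 at 20 and at 100, and the ALB change of 500 against 20 was −0.22 ± 0.05 in log2 (± SE; edgeR adjusted p = 0.000701). AFP had 3075, 3316 and 3328 CPM at 20, 2937, 3197 and 3056 CPM at 100, and 2589, 2621 and 2649 CPM at 500. The 3 AFP values at 500 overlapped neither lower dose, and the change of 500 against 20 was −0.30 ± 0.05 (edgeR adjusted p = 4.91e-05). TF averaged 2162 CPM at 500 and 2479 CPM at 20, a change of −0.20 ± 0.05 (edgeR adjusted p = 0.00285). With HPX, described below, 4 of 9 members fell and 0 rose at 500 against 20 of Guibi-tang, where 8.12% of genes were called, 4.93% higher and 3.2% lower.

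Within the higher MALAT1 class, the Guibi-tang library at 500 had 2649 CPM of AFP and the 2 libraries at 20 averaged 3322 CPM. Within the lower class, the 2 libraries at 500 averaged 2605 CPM and the 1 library at 20 had 3075 CPM. ALB ran the same way, at 6749 CPM at 500 against 8032 CPM at 20 in the higher class, and at 6905 CPM at 500 against 7947 CPM at 20 in the lower class. TF had 2204 CPM at 500 against 2515 CPM at 20 in the higher class, and 2141 against 2407 CPM in the lower class. Against vehicle, AFP with Guibi-tang at 500 averaged 2620 CPM and vehicle averaged 2979 CPM, a change of −0.18 ± 0.05 (edgeR adjusted p = 0.0137). In the 2 fits that lost this call the adjusted p reached 0.145. AFP was called in 1 of the 18 comparisons with vehicle, this one. ALB with Guibi-tang at 500 did not pass against vehicle, at 6853 CPM with Guibi-tang and 7074 CPM in vehicle (−0.04 ± 0.05). The ALB fall thus started above vehicle. At 20 of Guibi-tang, ALB averaged 8004 CPM and was called higher than vehicle (0.18 ± 0.05, edgeR adjusted p = 0.0178). That call was lost in 5 of 13 alternative settings (adjusted p up to 0.105). Mean TF at 500 of Guibi-tang, at 2162 CPM, was still above the vehicle mean of 1975 CPM.

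The 3 libraries of Guibi-tang at 500 had the lowest AFP of all 60, and the next was Menthae Herba 20 replicate 3 at 2704 CPM. ALB and AFP have coding sequences of the same length, 1827 bases, so their CPM can be set against each other directly. AFP was 37.1% to 39.3% of ALB with Guibi-tang at 500 and 41.6% to 42.7% of ALB in vehicle, within a range of 37.1% to 43.5% over all libraries. Other groups overlapped the Guibi-tang range, such as 38.0% to 39.3% with Menthae Herba at 500 and 38.3% to 39.3% with Saposhnikoviae Radix at 20, and 13 of the 21 other groups had a library at or below the highest share of Guibi-tang at 500. Within Guibi-tang and the lower class, the share was 37.1% and 38.4% at 500 and 38.7% at 20. Within the higher class it was 39.3% at 500 and up to 41.4% at 20.

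**Figure D3:**
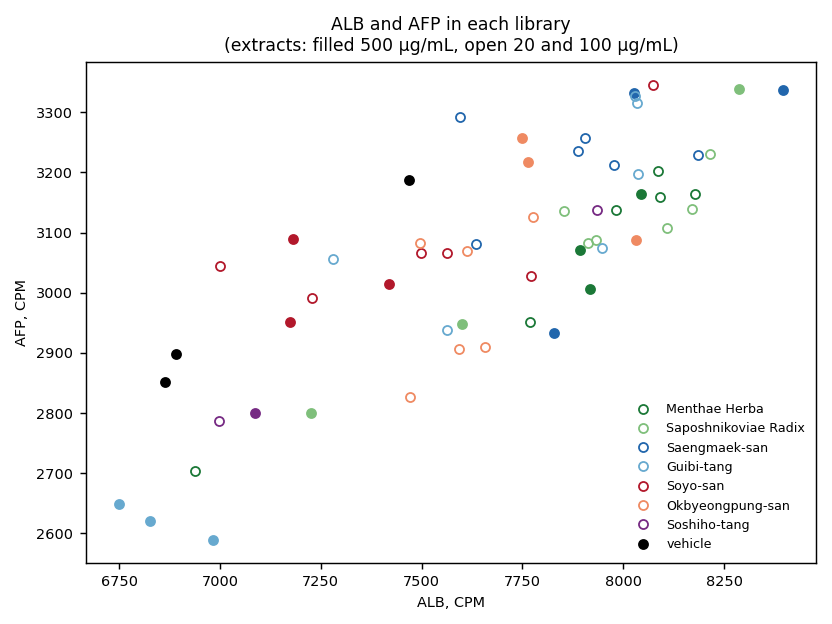
AFP against ALB, both in CPM, in each of the 60 libraries, coloured by extract; black points are vehicle, filled coloured points are 500 µg/mL and open points are 20 and 100 µg/mL. The 3 filled Guibi-tang points form the low end of AFP, between 2589 and 2649 CPM.

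For the other extracts, ALB and AFP moved little between 20 and 500. ALB at 500 against 20 ranged from −0.08 with Saposhnikoviae Radix to 0.05 with Menthae Herba, and AFP from −0.06 with Saposhnikoviae Radix to 0.07 with Okbyeongpung-san, with SEs of 0.05 and no call. Against vehicle at 500, ALB was called higher with Menthae Herba (0.17 ± 0.05), Saengmaek-san (0.19 ± 0.05) and Okbyeongpung-san (0.15 ± 0.05). The Okbyeongpung-san call was lost in 6 of 13 alternative settings, without the filter, without vehicle replicate 2 or 3 or without any of its own 3 libraries at 500 (adjusted p up to 0.159). The Saengmaek-san call was lost with only the groups compared (adjusted p = 0.104). Menthae Herba at 500 had 7918, 8045 and 7894 CPM of ALB, against 7468, 6891 and 6863 CPM in vehicle. The groups did not overlap, as for 49.8% of tested genes (edgeR adjusted p = 0.00274). In 1 library of Menthae Herba at 20, replicate 3, ALB was 6939 CPM and AFP 2704 CPM, beside 8091 and 7981 CPM of ALB and 3159 and 3138 CPM of AFP in its partners.

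By fold change, AHSG and AMBP rose most among the members with the dose of Menthae Herba. At 500 against 20, AMBP was within the error of TTR (0.37 ± 0.10). AHSG had 1889, 2053 and 2035 CPM in vehicle, 2367, 2347 and 2191 CPM at 20, 2614, 2686 and 2374 CPM at 100, and 3251, 3398 and 3115 CPM at 500. Each dose lay above vehicle, and every library at 500 lay above every other library of the series. AHSG was 0.71 ± 0.05 higher at 500 than in vehicle (edgeR adjusted p = 2.2e-16) and 0.50 ± 0.05 higher than at 20 (edgeR adjusted p = 2.69e-11). AHSG was also called higher than vehicle in other extracts. At 500 these were Saengmaek-san (0.32 ± 0.05), Soyo-san (0.28 ± 0.05) and Guibi-tang (0.18 ± 0.05). Menthae Herba included, 3 extracts were called at 20, 2 at 100 and 4 at 500. Without vehicle replicate 1, the AHSG calls that held were 0, 1 and 3. AMBP had 633, 694 and 698 CPM in vehicle, 831, 790 and 751 CPM at 20, 842, 853 and 778 CPM at 100, and 1049, 1070 and 1036 CPM at 500. The 500 libraries again lay above all others, at 0.64 ± 0.06 against vehicle (edgeR adjusted p = 2.23e-12) and 0.41 ± 0.06 against 20 (edgeR adjusted p = 3.47e-07).

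The retinol-transport pair TTR and RBP4 changed in opposite directions with Menthae Herba. TTR had 103, 113 and 103 CPM at 500, against 83.4, 82.1 and 80.7 CPM at 20 and 71.0, 76.5 and 84.6 CPM in vehicle. The 500 libraries did not overlap either group, and TTR was 0.37 ± 0.10 higher at 500 than at 20 (edgeR adjusted p = 0.00299) and 0.46 ± 0.10 higher than in vehicle (edgeR adjusted p = 0.000242). RBP4 had 356, 366 and 345 CPM at 500, against 471, 447 and 453 CPM at 20 and 451, 463 and 461 CPM in vehicle. RBP4 at 500 lay below both groups in each library, by −0.36 ± 0.09 against 20 (edgeR adjusted p = 0.00122) and −0.37 ± 0.09 against vehicle (edgeR adjusted p = 0.000784). Counting HPX below, 3 members rose and 2 fell at 500 against 20 of Menthae Herba, where 16.3% of genes were called higher and 15.8% lower (32.1% in all). Against vehicle 5 rose and 2 fell, where 19.8% were called higher and 20% lower. The dose plot of Menthae Herba beside Guibi-tang shows these lines parting between 100 and 500.

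**Figure D4:**
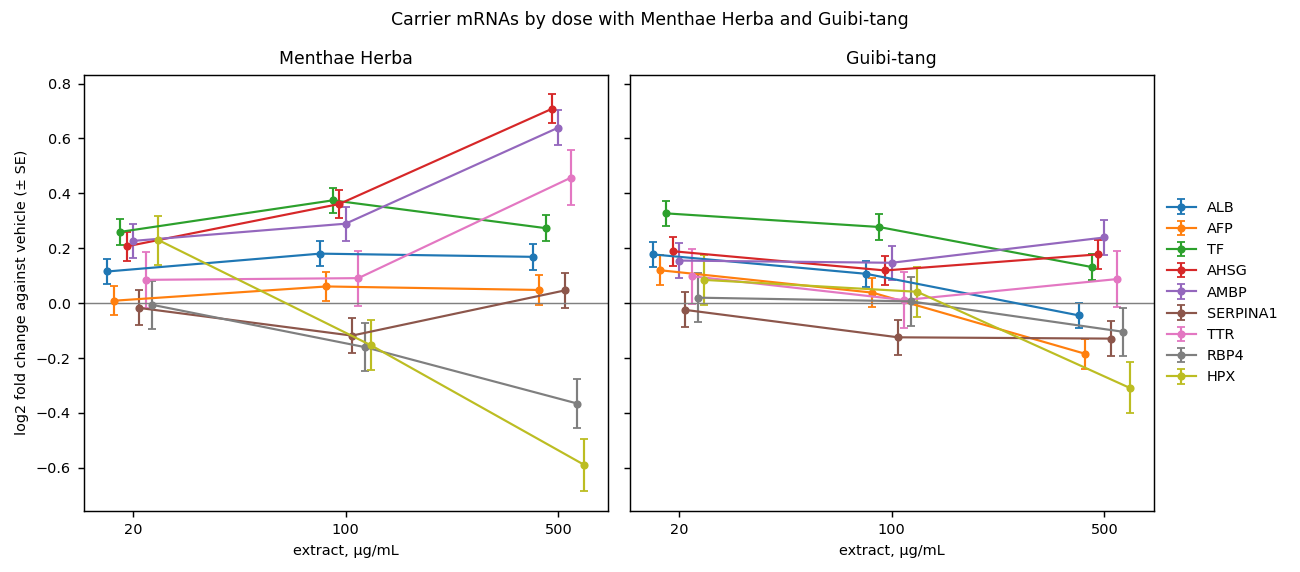
Log2 fold change against vehicle (vertical axis, ± SE) of the 9 tested carrier mRNAs at 20, 100 and 500 µg/mL (horizontal axis) of Menthae Herba on the left and Guibi-tang on the right; all points share the 3 vehicle libraries. With Menthae Herba at 500, AHSG stands at 0.71 and HPX at −0.59, while with Guibi-tang at 500 AFP stands at −0.18 and HPX at −0.31.

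Soyo-san gave smaller changes in the same direction for TTR, AHSG and AMBP. AMBP had 890, 889 and 880.0 CPM at 500, against 730, 679 and 742 CPM at 20, with no overlap. AMBP was 0.30 ± 0.06 higher at 500 than at 20 (edgeR adjusted p = 0.00046). TTR averaged 93.4 CPM at 500 and 74.2 CPM at 20 (0.33 ± 0.10, edgeR adjusted p = 0.033), and AHSG averaged 2410.4 CPM at 500 and 2119 CPM at 20 (0.19 ± 0.05, edgeR adjusted p = 0.0169). The TTR call was lost when any of 5 of the 6 libraries compared was left out (adjusted p up to 0.2), and the AHSG call without Soyo-san 20 replicate 2 or Soyo-san 500 replicate 3 (up to 0.178). In all, 3 members rose and 1 fell at 500 against 20 of Soyo-san, where 7.58% of genes were called, 4.24% higher and 3.34% lower. RBP4 with Soyo-san was −0.10 ± 0.09 at 500 against 20 and was not called.

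HPX was lower at 500 than at 20 by its mean in all 6 replicated extracts, a pattern that 5.33% of the tested genes shared, and it was called in 4. With Menthae Herba, HPX had 16.5, 16.4 and 15.2 CPM at 20, 13.1, 12.3 and 11.5 CPM at 100, and 8.95, 9.26 and 9.08 CPM at 500. The 3 doses did not overlap, and HPX at 500 was −0.82 ± 0.09 against 20 (edgeR adjusted p = 2.89e-10), the largest change of any member in any comparison. Against the vehicle values of 13.4, 13.1 and 14.6 CPM it was −0.59 ± 0.09 (edgeR adjusted p = 1.03e-06). With Saengmaek-san, HPX had 11.1, 12.3 and 10.6 CPM at 500, against 16.4, 15.3 and 15.1 CPM at 20, a change of −0.46 ± 0.09 (edgeR adjusted p = 0.00143). The Saengmaek-san difference was present in both MALAT1 classes, at 10.6 CPM at 500 against 15.1 CPM at 20 in the higher class and 11.7 against 15.8 CPM in the lower class. HPX was the 1 member called at 500 against 20 of Saengmaek-san, where 1.96% of genes were called.

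With Guibi-tang, HPX had 12.2, 10.0 and 11.0 CPM at 500, against 16.6, 13.2 and 13.7 CPM at 20, a change of −0.39 ± 0.09 (edgeR adjusted p = 0.00247). Without Guibi-tang 20 replicate 1, the highest of these, the adjusted p was 0.0641. HPX with Guibi-tang had 11.0 CPM at 500 against 13.5 CPM at 20 in the higher MALAT1 class, and 11.1 against 16.6 CPM in the lower class. With Soyo-san, HPX averaged 12.3 CPM at 500 and 15.2 CPM at 20 (−0.31 ± 0.09, edgeR adjusted p = 0.0269), a call lost when any of 5 of the 6 libraries was left out (adjusted p up to 0.209). Saposhnikoviae Radix gave −0.24 ± 0.09 without a call, and Okbyeongpung-san had 15.4, 14.9 and 15.7 CPM at 500 against 16.8, 14.9 and 14.4 CPM at 20. Mean HPX was lower at each dose step in 5 of the 6 extracts, and the 1 exception was Okbyeongpung-san. The doses of 20 started above vehicle: mean HPX at 20 was 14.5 to 17.1 CPM in the 6 extracts and 13.7 CPM in vehicle. This was called with Saposhnikoviae Radix (0.32 ± 0.09, edgeR adjusted p = 0.0193), a call lost without vehicle replicate 1 or 2 or Saposhnikoviae Radix 20 replicate 1 (up to 0.112). At 500 against vehicle, HPX was called lower also with Guibi-tang (−0.31 ± 0.09, edgeR adjusted p = 0.0178) and with Saengmaek-san (−0.27 ± 0.09, edgeR adjusted p = 0.0475). The Saengmaek-san call was lost in 7 of 13 alternative settings, among them the class term and each vehicle library left out (up to 0.179). Without a call, HPX at 500 against vehicle was −0.15 ± 0.09 with Soyo-san, 0.08 ± 0.09 with Saposhnikoviae Radix and 0.17 ± 0.09 with Okbyeongpung-san. No member was called at 500 against 20 with Saposhnikoviae Radix, where 0.397% of genes were called, or with Okbyeongpung-san, where 0.024% were. At an unadjusted edgeR p under 0.05 the counts were 2 and 0 members, and DESeq2 called 0 members with either extract.

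TF and AMBP were lower in vehicle than in every mean of the 18 extract groups. TF had 1892, 1997 and 2036 CPM in vehicle, and each of the 57 extract libraries, Soshiho-tang included, had more. TF was called higher than vehicle in 6 of 6 extracts at 20 and at 100, from 0.19 ± 0.05 with Soyo-san to 0.33 ± 0.05 with Guibi-tang at 20, and in 4 of 6 at 500. The call at 500 of Guibi-tang (0.13 ± 0.05, edgeR adjusted p = 0.0469) was lost in 8 of 13 alternative settings (up to 0.229), RLE scaling, no filter and vehicle replicate 1 or 2 left out among them. Without vehicle replicate 1 the TF call of Soyo-san at 20 was lost as well. AMBP was called higher than vehicle in 2 extracts at 20, 3 at 100 and all 6 at 500, and without vehicle replicate 1 the calls that held were 0, 1 and 4. At 500 AMBP ranged from 0.22 ± 0.06 with Okbyeongpung-san to 0.64 with Menthae Herba. The comparison of 500 with 20 gave 1 TF call, lower with Guibi-tang, and 2 AMBP calls, higher with Menthae Herba and Soyo-san. All 18 comparisons rest on the same 3 vehicle libraries, and without vehicle replicate 1 the count of called pairs at 500 was 17.

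SERPINA1 was called in 1 of 18 comparisons with vehicle. With Okbyeongpung-san at 100 it had 5343, 5202 and 4847 CPM, against 6904, 6554 and 6301 CPM in vehicle. These groups did not overlap, as for 26.7% of tested genes. The change was −0.36 ± 0.06 (edgeR adjusted p = 0.000135), with 12.9% of genes called in that comparison. At the other doses of Okbyeongpung-san, SERPINA1 averaged 5951 CPM at 20 and 6044 CPM at 500, without a call against vehicle. All Okbyeongpung-san libraries were of the higher MALAT1 class and all vehicle libraries of the lower. In 17 of the 18 extract groups the SERPINA1 mean lay below the vehicle mean, and the 1 group above it was Menthae Herba at 500, at 6802 CPM with Menthae Herba and 6586 CPM in vehicle. SERPINA1 was called by edgeR and by DESeq2 in 0 of 6 extracts at 500 against 20, with 1 at an unadjusted edgeR p under 0.05 and changes from −0.13 ± 0.06 with Saengmaek-san to 0.06 ± 0.06 with Menthae Herba.

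Whether the change of 500 against 20 differed between extracts was tested directly. Over the 6 extracts at once, 7 of the 9 members passed, where 18.5% of genes did, and RBP4 (edgeR adjusted p = 0.104) and SERPINA1 (edgeR adjusted p = 0.399) did not. Between the single herbs, the change with Menthae Herba exceeded that with Saposhnikoviae Radix by 0.59 ± 0.07 for AHSG, 0.54 ± 0.14 for TTR and 0.37 ± 0.09 for AMBP, and for HPX the difference was −0.58 ± 0.13. Their edgeR adjusted p values ran from 1.38e-08 to 0.00413, and 20% of genes passed this test. Between Saengmaek-san and Guibi-tang, the difference was 0.25 ± 0.07 for ALB, 0.28 ± 0.08 for AFP and 0.25 ± 0.07 for TF. Their edgeR adjusted p values were 0.0346 to 0.045, with 1.15% of genes passing, and each of these calls was lost in 10 or 11 of 19 alternative settings (adjusted p up to 0.152). Between Soyo-san and Okbyeongpung-san 0 of 9 members passed the edgeR test, where 2.36% of genes did (4 at an unadjusted p under 0.05, and 0 by DESeq2), and the differences ran from −0.30 ± 0.13 for HPX to 0.31 ± 0.14 for TTR.

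Soshiho-tang had 1 library a dose and no test, and its intervals cover counting error only. HPX had 14.5 CPM at 20 (exact Poisson 95% interval 13.1 to 16.1), 11.5 CPM at 100 (10.2 to 12.9) and 9.88 CPM at 500 (8.72 to 11.2). The ratio of 500 over 20 was 0.681, and 8.74% of the 16481 genes with a ratio were below 0.75. AMBP had 788 CPM at 20, 777 CPM at 100 and 996 CPM at 500, a ratio of 1.26. ALB had 7934, 6999 and 7087 CPM at 20, 100 and 500, and AFP had 3137, 2786 and 2800.4 CPM, ratios of 0.893 for both. TTR, at 68.0, 57.6 and 61.8 CPM at 20, 100 and 500, and SERPINA1, at 5281, 4694 and 5214 CPM, were at the lowest of all 60 libraries in the 100 library.

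ALB and AFP had the most similar dose patterns of any pair of members. After centring each extract on its 3 doses, Pearson's r between their group means over the 18 extract-dose groups was 0.94, and no other gene among 9321 ranked higher for either. The genes next most like ALB were TF (0.89), ANGEL1 (0.85), SERPINH1 (0.85) and ITIH2 (0.84). Those next most like AFP were HSP90B1 (0.91), UGT2A3 (0.88), ITIH2 (0.87) and PDIA4 (0.86). Among the members, AHSG and AMBP had r = 0.91, TTR and AMBP 0.85, TTR and AHSG 0.84, and RBP4 and HPX 0.90, while AMBP and HPX had −0.80. These values describe group means that share libraries and scaling, and they carry no p. They give most weight to the extract with the widest spread of dose means. For ALB and AFP that was Guibi-tang, with mean ALB of 8004 CPM at 20 and 6853 CPM at 500. Mean AFP there was 3240 CPM at 20 and 2620 CPM at 500. For AHSG, AMBP, TTR, RBP4 and HPX it was Menthae Herba, and r without these extracts was not computed. Between replicates of a group (57 libraries, deviations from the group mean), TTR and RBP4 deviated together (r = 0.87), as did ALB and AFP (0.73). AMBP and HPX, whose dose patterns ran against each other, had r = 0.68 there.

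Lists of related genes were counted beside the members at 500 against 20. Each count stands beside the share of all genes called, which was 1.96% with Saengmaek-san, 0.397% with Saposhnikoviae Radix and 0.024% with Okbyeongpung-san and is repeated for the other 3 extracts. Of 22 liver transcription factors and AFP repressors, 2 were higher and 9 lower with Menthae Herba (9.09% and 40.9% of the list, where 16.3% of all genes were higher and 15.8% lower), and the median of the list was −0.11 where the median of all genes was −0.01. NR1H4, the bile acid receptor FXR, averaged 13.4 CPM at 500 and 37.7 CPM at 20 (−1.49 ± 0.06, edgeR adjusted p = 9.56e-26). CEBPA, a liver factor known from mouse to activate the albumin gene, averaged 64.5 CPM at 500 and 172 CPM at 20 (−1.42 ± 0.11, edgeR adjusted p = 9.18e-14), while ALB was not called in that comparison. FOXA1 changed by −0.74 ± 0.06 and DBP by −0.94 ± 0.14. With Soyo-san 1 was higher and 6 were lower (4.55% and 27.3%, where 4.24% and 3.34% of all genes were), CEBPA (−0.58 ± 0.11) and NR1H4 (−0.69 ± 0.06) among them. With Guibi-tang 1 was higher (CEBPD, 0.43 ± 0.13) and 1 lower (NR1H4, −0.40 ± 0.06), which at 9.09% of the list is near the 8.12% of all genes called. With Saengmaek-san 1 was lower, and with Saposhnikoviae Radix and Okbyeongpung-san 0 were called by edgeR (1 each at an unadjusted p under 0.05, and 1 and 0 by DESeq2).

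Of 22 tested other secreted plasma proteins, 4 were higher and 8 lower with Menthae Herba (18.2% and 36.4%, where 16.3% and 15.8% of all genes were). CP (ceruloplasmin, the copper carrier) averaged 231 CPM at 500 and 117 CPM at 20 (0.99 ± 0.10), while haptoglobin HP, which binds free hemoglobin, averaged 109 CPM at 500 and 177 CPM at 20 (−0.70 ± 0.05). HPR, which shares sequence with HP, was −0.75 ± 0.07, a value that depends on how shared reads were assigned. With Guibi-tang 1 was higher and 10 were lower, where 8.12% of genes were called, with a list median of −0.27 and a median of all genes of −0.0023. The thyroxine carrier SERPINA7 averaged 90.6 CPM at 500 and 124 CPM at 20 of Guibi-tang (−0.45 ± 0.04, edgeR adjusted p = 9.57e-11), and A2M, a broad protease inhibitor, 3046 CPM at 500 and 3909 CPM at 20 (−0.36 ± 0.05, edgeR adjusted p = 1.7e-07). AFM, the albumin family gene next to AFP on chromosome 4, had a mean of only 0.798 CPM over the libraries. SHBG, the sex steroid carrier, rose with Guibi-tang (0.49 ± 0.10). With Saengmaek-san 0 rose and 5 fell, with Soyo-san 2 rose and 3 fell (7.58% of all genes called), with Saposhnikoviae Radix 1 fell (SERPINA7, −0.24 ± 0.04), and with Okbyeongpung-san 0 were called by edgeR (3 at an unadjusted p under 0.05, and 0 by DESeq2).

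Of 20 genes for folding and export of secreted proteins, 6 were lower and 0 higher with Guibi-tang at 500 against 20, where 3.2% of all genes were lower and 4.93% higher, with a list median of −0.08. The endoplasmic reticulum chaperones PDIA4 (−0.27 ± 0.04, edgeR adjusted p = 1.67e-06) and HSPA5 (−0.23 ± 0.04, edgeR adjusted p = 1.55e-05) changed most. With Menthae Herba 6 were higher, led by LMAN1, a cargo receptor of the early secretory pathway, at 0.28 ± 0.05, and 3 were lower (30.0% and 15.0% of the list, where 16.3% and 15.8% of all genes were). Saengmaek-san and Soyo-san each had 1 higher (5.0% of the list, where 1.96% and 7.58% of all genes were called), SEC23B at 0.13 ± 0.04 with Saengmaek-san and 0.12 ± 0.04 with Soyo-san. With Saposhnikoviae Radix and Okbyeongpung-san 0 passed in edgeR, at an unadjusted p under 0.05 or in DESeq2.

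Of 14 receptor and recycling genes, the transferrin receptor gene TFRC was higher at 500 than at 20 with Menthae Herba (0.50 ± 0.07), Saengmaek-san (0.30 ± 0.07) and Soyo-san (0.21 ± 0.07), and lower with Saposhnikoviae Radix (−0.47 ± 0.07), while TF itself was not called in these 4. HMOX1, which degrades heme, averaged 47.6 CPM at 500 and 63.1 CPM at 20 of Menthae Herba (−0.41 ± 0.06) and 65.7 CPM at 500 and 55.4 CPM at 20 of Guibi-tang (0.25 ± 0.06), and HPX fell in both. In this list 3 rose and 4 fell with Menthae Herba (50% called, where 32.1% of all genes were), and 4 rose and 2 fell with Guibi-tang (42.9%, where 8.12% were). Saengmaek-san had 1 that rose and 1 that fell, Soyo-san 2 that rose (14.3%, where 7.58% were called), and Saposhnikoviae Radix 2 that fell, while with Okbyeongpung-san 0 were called by edgeR (1 at an unadjusted p under 0.05, and 0 by DESeq2). Of 15 fetal liver and hepatocellular carcinoma genes, 3 rose and 3 fell with Menthae Herba, and this 40.0% is near the 32.1% of all genes called. DLK1 was −0.65 ± 0.07 and CD24 0.63 ± 0.06 there. With Guibi-tang the imprinted gene PEG10 was the 1 called, at 3950 CPM at 500 and 5040.0 CPM at 20 (−0.35 ± 0.05, edgeR adjusted p = 4.36e-06), beside the fall of AFP, and 6.67% of the list is near the 8.12% of all genes. With Soyo-san 2 rose and 3 fell (33.3%, where 7.58% were called), and with Saengmaek-san, Saposhnikoviae Radix and Okbyeongpung-san 0 were called by edgeR or DESeq2 (2, 3 and 0 at an unadjusted edgeR p under 0.05).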

How the data were processed

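Expected counts per gene, for 60 libraries, came from the deposited table. Per the submitters' processing notes, reads were handled with FastQC 0.11.9, Trim Galore 0.6.5, STAR 2.7.3a and RSEM 1.3.3. The sources used here do not give the annotation release or the strand setting. The expected counts deposited by the authors were rounded, since 71.9% of nonzero values were whole (tolerance 1e-09). Of 60675 identifiers 56558 had a symbol in a gene name table, and 497 more in GENCODE v29, which also gave positions and coding lengths.

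Genes were kept by filterByExpr by group (minimum count 10), leaving 16644, scaled by TMM and fitted with edgeR 4.0.16 in R 4.3.3 (quasi-likelihood, robust) on 57 libraries of 19 groups, with a common dispersion of 0.00345. P-values were adjusted by Benjamini-Hochberg over all genes tested, and each SE is the absolute log2 fold change over the square root of F. CPM use TMM-scaled totals. Soshiho-tang stayed out of the fit. Members and lists were chosen with earlier results of these data known. Every member is given, and from the other lists the called genes of largest change, up to 4 a list and comparison; for like patterns, the 5 genes of at least 10 CPM with the highest correlation. HRG, PZP and LCN2 were below the filter.

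Alternatives were RLE scaling, no filter, DESeq2 1.42.0, only the groups compared, replicate blocks and leaving out each library. A library class term was added after the data were seen. On simulated data in the layout of Menthae Herba 500 against vehicle, over 16446 genes, changes of 1.5, 2 and 4-fold were given to 67, 67 and 66 genes. These were recovered for 62.7%, 73.1% and 95.5% of the genes changed. Of the 38 changed genes with at least 10 CPM, the 1.5-fold changes were recovered for 94.7%. Changes smaller than 1.5-fold, as most member changes here were, were not simulated, so their recovery is not known.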

Additional observations from a re-analysis of the deposited data

Results flagged for a closer look

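The results here stood out because the change of 500 against 20 µg/mL differed between extracts by a test of the difference itself (edgeR's quasi-likelihood F test, Benjamini-Hochberg adjusted over all genes). Over the 6 replicated extracts together, the adjusted p was 9.71e-08 for AHSG, 8.49e-05 for HPX, 0.00156 for AFP, 0.00299 for AMBP, 0.00651 for TF, 0.00846 for ALB and 0.0117 for TTR.

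With Menthae Herba minus Saposhnikoviae Radix, the log2 difference was 0.59 for AHSG (adjusted p = 1.38e-08), 0.54 for TTR (0.00413), 0.37 for AMBP (0.00134) and −0.58 for HPX (5e-04). All libraries of both herbs were in the lower MALAT1 class. AHSG at 500 had 3251, 3398 and 3115 CPM with Menthae Herba and 2229, 1952 and 2023 CPM with Saposhnikoviae Radix.

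With Saengmaek-san minus Guibi-tang, the difference was 0.25 for ALB (adjusted p = 0.0408), 0.28 for AFP (0.045) and 0.25 for TF (0.0346). These calls were lost in 10, 11 and 10 of 19 alternative settings, the fit of only the groups compared among them. Both extracts held libraries of both MALAT1 classes, and AFP at 500 averaged 3332 CPM with Saengmaek-san and 2649 CPM with Guibi-tang in the higher class, and 3135 CPM with Saengmaek-san and 2605 CPM with Guibi-tang in the lower class.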

How the results depend on the processing

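No called member changed direction under any alternative run. With only the groups compared in the fit, the called pairs at 20 against vehicle numbered 9 in place of 15, and those of the within-pair differences of dose effect 4 in place of 7; the cause was not tested, beyond the fewer libraries that this fit holds by construction. Leaving out 1 library at a time gave 17 to 26 calls at 500 against vehicle, 12 to 15 at 100, 8 to 16 at 20, 11 to 14 for 500 against 20, 7 to 8 for the test over 6 extracts and 4 to 9 within pairs. The 8 came without vehicle replicate 1. The 4 came without Saengmaek-san 500 replicate 2, Guibi-tang 500 replicate 2, Guibi-tang 20 replicate 2, Saengmaek-san 20 replicate 3 or Guibi-tang 20 replicate 3. DESeq2 gave 28, 15, 16 and 14 calls for 500, 100 and 20 against vehicle and 500 against 20, RLE scaling gave 23, 14, 15 and 14, and the class term, chosen after seeing the data, gave 25, 18, 20 and 14. DESeq2 was not run for the test over 6 extracts.

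Over the 57 libraries of the fit, same-numbered libraries had a median r of 0.01 between their deviations (31 of 513 pairs over 0.1). Among the libraries of Saengmaek-san and Guibi-tang, same-numbered libraries did deviate together. Their median was 0.11 (26 of 45 pairs over 0.1), against −0.06 for libraries of other numbers. There the MALAT1 class followed the replicate number in part, so the class and the number cannot be fully told apart. With a replicate block the counts were 23, 15, 15 and 14, and with a replicate block set separately for each first number of the library code 25, 16, 16 and 14. Of the 74 single-gene calls, 29 missed the threshold without some 1 library, 17 of them without vehicle replicate 1, and 18 missed the threshold with only the groups compared, 6 without the filter, 2 with the class term, 1 with RLE scaling, 1 with either block and 0 with DESeq2. The calls of TTR with Soyo-san and HPX with Saengmaek-san at 500 against vehicle were those lost with the class term. Depth limits GC only, at or under 4 counts a library.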
